A study of Mus musculus with 9 samples.

Results

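Genes of skeletal and extraocular muscle were followed through RNA from choroidal-retinal flat mounts of mice. Members were 45 of the 54532 genes in the deposited table, picked by symbol. They comprised 15 genes typical of fast fibres, 7 of slow fibres, 3 extraocular or developmental genes (Myh13, Myh8 and Actc1), 12 shared parts of the sarcomere and cytoskeleton, 2 shared calcium channels and 6 shared genes of energy supply. All mice were C57BL/6. The untreated group had 3 libraries, and so had the group labelled CNV (choroidal neovascularization), whose titles call it wet-AMD. The 3 BetP-Gel@Ran libraries were labelled as taken 3 months after an injection of BetP-Gel into the vitreous. Their titles name Ran, which the series title ties to ranibizumab, but their treatment label names the gel alone and does not say whether these mice had CNV. The labels give no age, sex or sampling time for the other 2 groups, so time and treatment cannot be told apart. Whether the libraries of a group are 3 animals is not labelled, and p-values therefore cover the spread between samples that may be technical repeats.

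Skeletal muscle contracts when calcium released from the sarcoplasmic reticulum binds troponin and lets myosin heads pull on actin filaments. Fast and slow fibres use different genes for the same parts of this machine, such as different myosin heavy chains, light chains and troponins. The extraocular muscles that turn the eye are unusual in mixing fast, slow, developmental and their own heavy chain, Myh13, in 1 small muscle. Neural retina, choroid and pigment epithelium hold no skeletal muscle, whereas the extraocular muscles insert on the sclera just outside them.

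The libraries held 16990118 to 18753737 reads on genes. Untreated libraries gave 1.46 ± 0.0143% of these reads (SD, n = 3) to the muscle genes, CNV libraries 0.316 ± 0.0832% and BetP-Gel@Ran libraries 0.384 ± 0.0413%. Reads of muscle genes were thus found in every library, although the label names retina and choroid. Levels are FPKM, fragments scaled to gene length and to the mapped reads. In untreated libraries 32 members averaged at least 10 FPKM, 5 lay between 1 and 10, and 7 had reads but less than 1. Tnnc2, which encodes fast troponin C, was listed at 0 in all 9 libraries. In the GENCODE M21 annotation 74% of its exon bases lie under Ube2c on the opposite strand, and the kit did not mark the strand, so its 0 cannot be read as absence of fast troponin C.

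CNV libraries held less RNA of every muscle gene that could be tested. Of 36 members that reached 1 FPKM in at least 3 libraries, 36 were lower in CNV than in untreated libraries (limma, Benjamini-Hochberg over all 14086 genes, adjusted p at most 0.000487), against 22.1% of all genes tested. Myom1 reached 1 FPKM in untreated libraries alone, so the filter fixed its direction, and the other 35 were all lower too. The median log2 change over the 36 was -2.31, where the median over all genes was 0.01. Changes ran from -4.22 for Actc1 to -1.23 for Smpx, on the log2(FPKM + 1) scale, on which changes of low genes come out too small. The untreated libraries lay above every CNV library in all 36, against 26.7% of all genes tested. Of the 44 members with reads, Myom2 was the one whose groups overlapped. In bulk RNA, fewer muscle cells and less RNA per muscle cell cannot be told apart.

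Samples after BetP-Gel@Ran stood close to the CNV samples. All 36 tested members were lower than in untreated libraries (limma, adjusted p at most 0.00353), against 18.1% of all genes, with a median log2 change of -1.99. This comparison shares the untreated libraries with the one above. No library of the 2 groups overlapped in any of the 36, against 25.4% of all genes. As a share of the untreated mean, a median of 18.4% was left in CNV and 23.1% in BetP-Gel@Ran over the 44 members with reads. The share left in CNV ranged from 4.57% for Actc1 to 58.5% for Xirp2.

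**Figure D1:**
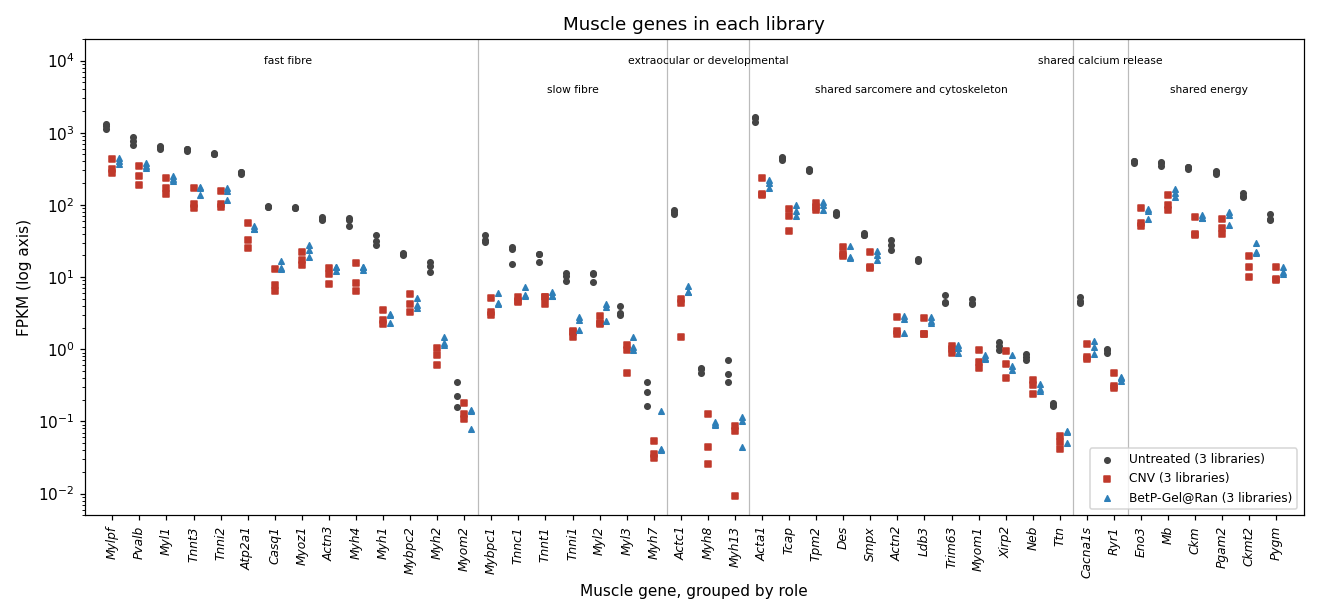
Level of each of the 44 muscle genes with reads in each of the 9 libraries, in FPKM on a log axis, ordered by role and then by untreated level; each point is 1 library. Untreated points lie above the CNV points for 43 genes, against 26.7% of all genes tested. The CNV and BetP-Gel@Ran points overlap for 37. Of all genes tested, 18.6% were lower and 18.3% higher in BetP-Gel@Ran than in CNV without overlap.

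The thin filament showed both the most abundant member and the largest change. Acta1, the actin of adult skeletal muscle, stood at 1603, 1424 and 1647 FPKM in the untreated libraries, 138, 141 and 234 in CNV and 218, 201 and 172 in BetP-Gel@Ran. Its log2 change in CNV was -3.22 ± 0.19 (SE). Actc1, the actin of heart and of developing or extraocular muscle, stood at 84.2, 75.5 and 79.0 FPKM in untreated libraries, 4.40, 1.48 and 5.04 in CNV and 6.31, 7.50 and 6.15 in BetP-Gel@Ran. All CNV and BetP-Gel@Ran libraries were far below all untreated ones for both actins. Within a library Actc1 came to 4.80 to 5.30% of Acta1 in untreated, 1.05 to 3.19% in CNV and 2.90 to 3.74% after BetP-Gel@Ran. The untreated ratios lay above all others. Tpm2, a tropomyosin that lies along the actin filament, averaged 305 ± 7.98 FPKM in untreated, 95.7 ± 9.91 in CNV and 97.9 ± 12.1 after BetP-Gel@Ran.

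The promoters of these 2 actins are shown because the genes encode near-identical proteins yet were lowered to different extents. The sequences are the 250 bases before the start annotated in RefSeq (GRCm38.p6), Acta1 at chr8:123894776-123895025 (minus strand) and Actc1 at chr2:114052876-114053125 (minus strand). Capitals mark matches on either strand to a MEF2 site, a CArG box, MCAT (CATTCC) or TATAAA, motifs known from muscle promoters or, for TATAAA, from core promoters.
Acta1: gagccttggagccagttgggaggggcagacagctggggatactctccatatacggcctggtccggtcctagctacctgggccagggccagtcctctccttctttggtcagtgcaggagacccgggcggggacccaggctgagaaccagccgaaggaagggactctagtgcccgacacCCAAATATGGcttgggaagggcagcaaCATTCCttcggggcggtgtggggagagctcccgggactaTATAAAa
Actc1: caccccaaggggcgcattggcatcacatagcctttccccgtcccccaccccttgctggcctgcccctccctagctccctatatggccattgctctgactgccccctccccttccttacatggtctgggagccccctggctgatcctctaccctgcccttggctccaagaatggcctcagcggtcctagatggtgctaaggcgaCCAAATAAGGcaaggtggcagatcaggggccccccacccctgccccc
Both hold a CArG box, and Acta1 also holds MCAT and TATAAA. The RefSeq start of Actc1 lies 673 bases from the gene start in the deposited table, against 24 for Acta1, so the window need not be the promoter used in these samples.

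Fast heavy chains were lowered unequally as well. Myh4, the type IIb chain, stood at 51.2, 62.4 and 65.1 FPKM in untreated, 8.36, 6.51 and 15.8 in CNV and 13.9, 13.97 and 12.5 after BetP-Gel@Ran. Myh1, the type IIx chain, stood at 32.0, 38.0 and 28.3 in untreated, 2.54, 2.26 and 3.55 in CNV and 2.95, 3.05 and 2.31 after BetP-Gel@Ran. Myh2, the type IIa chain, stood at 14.3, 16.4 and 11.7 in untreated, 0.834, 0.599 and 1.05 in CNV and 1.14, 1.47 and 1.24 after BetP-Gel@Ran. No CNV or BetP-Gel@Ran library reached the untreated range for any of the 3 chains. The log2 changes in CNV were -2.51 ± 0.25 for Myh4, -3.16 ± 0.15 for Myh1 and -3.04 ± 0.13 for Myh2 (SE). These are on log2(FPKM + 1), where the change of low Myh2 comes out too small. Of the untreated mean, 17.1% was left in CNV for Myh4, 8.50% for Myh1 and 5.86% for Myh2. Myh2 came to 17.9 to 27.9% of Myh4 in untreated, 6.67 to 9.98% in CNV and 8.19 to 10.5% after BetP-Gel@Ran. Myh1 came to 43.4 to 62.4%, 22.5 to 34.7% and 18.4 to 21.8% of Myh4 in the same order, also without overlap with untreated. These genes share sequence, with 25.4% of the 50-base words of Myh1, 22.9% of those of Myh2 and 18.9% of those of Myh4 found in another gene. Reads from such stretches may have been lost or misplaced, which was not tested.

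The promoters of Myh4 and Myh2, which lie in 1 cluster on chromosome 11, are shown for the same reason as those of the actins, Myh4 at chr11:67237562-67237811 (plus strand) and Myh2 at chr11:67170777-67171026 (plus strand).
Myh4: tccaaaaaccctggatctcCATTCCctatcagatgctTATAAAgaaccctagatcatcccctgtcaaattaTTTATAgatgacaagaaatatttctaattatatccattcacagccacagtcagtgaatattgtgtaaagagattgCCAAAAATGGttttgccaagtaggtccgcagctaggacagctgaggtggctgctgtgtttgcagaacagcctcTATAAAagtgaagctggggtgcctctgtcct
Myh2: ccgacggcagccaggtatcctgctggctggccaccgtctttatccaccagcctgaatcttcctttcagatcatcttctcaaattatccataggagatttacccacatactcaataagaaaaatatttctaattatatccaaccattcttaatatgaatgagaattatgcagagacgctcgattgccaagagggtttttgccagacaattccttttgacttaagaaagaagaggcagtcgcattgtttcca
Myh4 holds a CArG box, MCAT and TATAAA, and in the Myh2 window none of the 4 motifs was found. The window of Myh1, which like Myh2 was lowered further than Myh4, holds MCAT and 2 matches to TATAAA. The RefSeq start of Myh4 lies 217 bases from the deposited gene start, and that of Myh2 is the same base. RefSeq promoters were listed for 38 of the 45 members, 45 promoters in all. A CArG box stood in 15.6% of them against 1.47% of all 32851 promoters, MEF2 in 4.44% against 0.508%, MCAT in 24.4% against 12.6% and TATAAA in 17.8% against 12.4%. An E-box (CANNTG), the motif of the myogenic factors, was found in 82.2% against 66.2%. A match is a description of letters and not of a bound site. Whether these motifs bear on how far a gene was lowered was not tested.

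The extraocular and developmental heavy chains were low throughout. Myh13, the chain known for extraocular muscle, stood at 0.353, 0.702 and 0.461 FPKM in untreated, 0.0735, 0.00922 and 0.0868 in CNV and 0.102, 0.0448 and 0.114 after BetP-Gel@Ran. These values rest on 37 to 77, 1 to 10 and 5 to 12 reads per library. Myh8, the perinatal chain, averaged 0.521 ± 0.0445, 0.0656 ± 0.0544 and 0.0936 ± 0.00460 FPKM in the same order. Untreated libraries lay above all others for both chains. Myh13 as a share of Myh4 was 0.688 to 1.12% in untreated and 0.142 to 0.879% in CNV libraries, ranges that overlap, so a separate loss of the extraocular chain was not detectable at this depth. Myh8 as a share of Myh4 was 0.824 to 0.918% in untreated, 0.308 to 0.809% in CNV and 0.664 to 0.718% after BetP-Gel@Ran. These ranges did not overlap with untreated, but the gap to CNV, 0.809 against 0.824%, was small. Myh8 rested on 6 to 28 reads per CNV library and 18 to 21 per BetP-Gel@Ran library. Of its 50-base words, 12.1% are found in another gene. A separate fall of Myh8 was therefore not shown. Myh7, the slow and cardiac chain, averaged 0.257 ± 0.0905, 0.0397 ± 0.0116 and 0.0741 ± 0.0584 FPKM.

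Light chains and the calcium buffer of fast fibres kept more of their level. Mylpf, the regulatory light chain of fast myosin, stood at 1252, 1143 and 1334 FPKM in untreated, 313, 273 and 439 in CNV and 440, 411 and 374 after BetP-Gel@Ran. Pvalb, parvalbumin, which binds calcium in fast fibres and is also made by some retinal neurons, stood at 773, 683 and 875 in untreated, 254, 188 and 342 in CNV and 345, 381 and 330 after BetP-Gel@Ran. Myl1, the essential light chain, averaged 633 ± 28.4, 184 ± 46.8 and 232 ± 20.02 FPKM. All 3 were lower in every CNV and BetP-Gel@Ran library than in any untreated one, with log2 changes in CNV of -1.89 ± 0.16, -1.60 ± 0.19 and -1.81 ± 0.16 (SE). The fast troponins Tnnt3 and Tnni2 averaged 586 ± 18.7 and 513 ± 11.9 FPKM in untreated and 122 ± 44.3 and 118 ± 33.5 in CNV libraries. Among the remaining fast genes, the calcium pump Atp2a1 had a log2 change of -2.90 ± 0.23, the calcium store protein Casq1 -3.30 ± 0.20, Actn3, the fast alpha-actinin, -2.50 ± 0.15, Myoz1, a Z-disc protein, -2.30 ± 0.16 and Mybpc2, the fast myosin-binding protein C, -2.03 ± 0.16. Of the exon bases of Atp2a1, 21.9% lie under a gene on the other strand. Myom2, an M-band protein too low to be tested, stood at 0.160, 0.350 and 0.224 FPKM in untreated and 0.182, 0.109 and 0.127 in CNV libraries.

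Slow-fibre genes were less abundant, and all 6 that were tested were lower in CNV and in BetP-Gel@Ran than in untreated libraries. Over the 7 slow genes with reads, untested Myh7 included, the median share left in CNV was 22.1%, against 20.2% for the 14 fast genes with reads; in BetP-Gel@Ran the medians were 28.8% and 24.3%. Tnnt1, slow troponin T, stood at 20.8, 20.6 and 16.4 FPKM in untreated, 5.24, 4.24 and 5.23 in CNV and 6.14, 5.45 and 5.42 after BetP-Gel@Ran. Tnnc1, the troponin C of slow and cardiac muscle, averaged 21.9 ± 5.67, 4.84 ± 0.421 and 6.16 ± 1.03 FPKM. Tnni1 averaged 10.2 ± 1.19, 1.66 ± 0.184 and 2.41 ± 0.515 FPKM, and the slow light chain Myl2 10.2 ± 1.52, 2.49 ± 0.345 and 3.50 ± 0.903. Myl3, the slow essential light chain, averaged 3.36 ± 0.485, 0.861 ± 0.350 and 1.18 ± 0.258. Mybpc1, the slow myosin-binding protein C, was lowered most among the tested slow genes, with 33.8 ± 4.31 FPKM in untreated, 3.76 ± 1.14 in CNV and 4.88 ± 0.956 after BetP-Gel@Ran. Slow-to-fast ratios within a library overlapped between untreated and CNV for Tnnt1 to Tnnt3 (2.77 to 3.68% and 3.03 to 5.11%), for Tnni1 to Tnni2 (1.75 to 2.26% and 1.16 to 1.80%) and for Myl2 to Mylpf (0.636 to 0.958% and 0.658 to 0.857%). The ratio of Mybpc1 to Mybpc2 did not overlap, at 140 to 186% in untreated and 76.4 to 90.1% in CNV libraries, and at 83.0 to 147% in BetP-Gel@Ran it overlapped both.

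**Figure D2:**
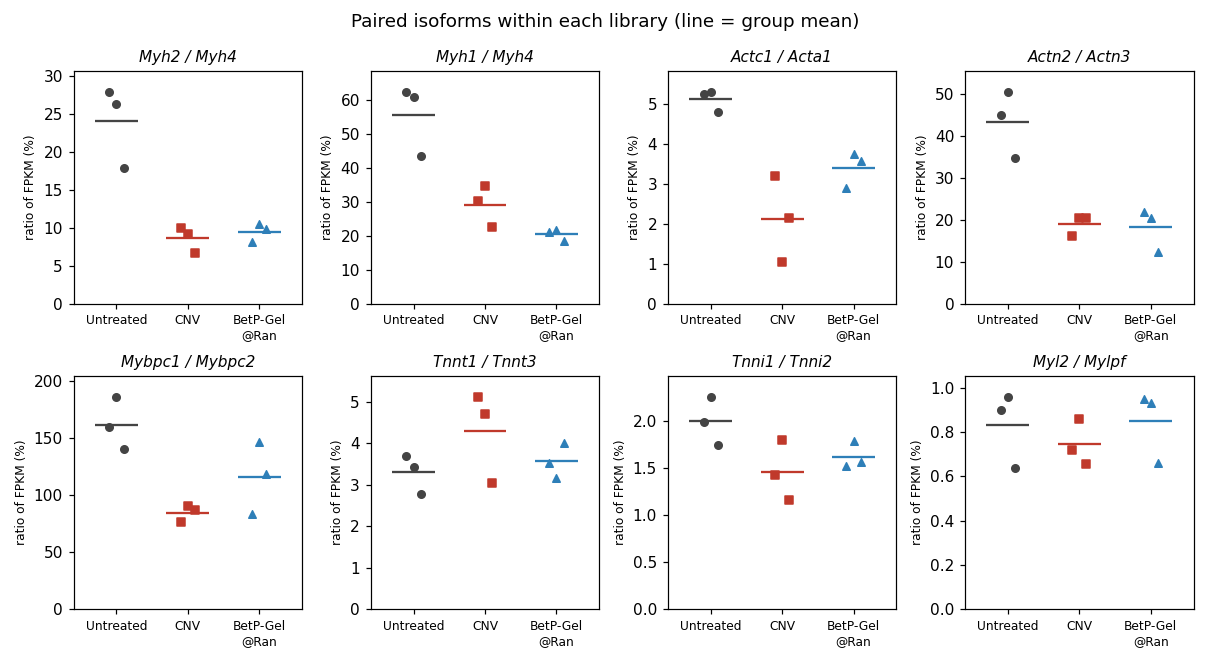
Ratio of paired muscle isoforms within each library, in percent of FPKM, for 8 pairs; each point is 1 library and the line is the mean of 3. The upper 4 ratios are lower in every CNV and BetP-Gel@Ran library than in any untreated one, and the 3 slow-to-fast ratios at the lower right overlap.

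Shared sarcomere genes spread widely. Actn2, the alpha-actinin that anchors actin at the Z-disc in all fibres, stood at 27.8, 32.2 and 23.8 FPKM in untreated, 1.78, 1.61 and 2.76 in CNV and 2.66, 2.85 and 1.69 after BetP-Gel@Ran. Smpx, a small cytoskeletal protein of striated muscle, stood at 40.6, 38.2 and 38.8 in untreated, 13.6, 13.9 and 22.2 in CNV and 19.99, 23.0 and 17.3 after BetP-Gel@Ran. Neither gene's untreated libraries overlapped with the others, but Smpx kept 42.3% of its level in CNV and Actn2 kept 7.33%. Des, the intermediate filament desmin, which smooth muscle also makes, averaged 76.2 ± 4.30, 22.2 ± 3.32 and 21.6 ± 4.74 FPKM. Tcap, the titin cap, averaged 446 ± 23.1, 67.0 ± 22.6 and 84.0 ± 14.2, and Ldb3, another Z-disc protein, 17.2 ± 0.720, 1.996 ± 0.645 and 2.51 ± 0.243. Trim63, a ubiquitin ligase that breaks down sarcomere proteins, averaged 4.85 ± 0.772, 1.01 ± 0.118 and 1.03 ± 0.136, and Myom1 of the M-band 4.55 ± 0.427, 0.722 ± 0.217 and 0.776 ± 0.0493. The giant genes were low per length and untested: Ttn, titin, averaged 0.170 ± 0.0106 FPKM over a deposited length of 116825 bases in untreated libraries and 0.0517 ± 0.0108 in CNV, and Neb, nebulin, 0.782 ± 0.0790 and 0.309 ± 0.0638. Xirp2, an actin-binding protein, averaged 1.12 ± 0.137 and 0.653 ± 0.268.

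All 6 energy genes and the 1 tested calcium channel, Cacna1s, were lower than in untreated libraries. Cacna1s, the voltage sensor of the fibre membrane, averaged 4.80 ± 0.440, 0.898 ± 0.246 and 1.07 ± 0.216 FPKM, and Ryr1, the release channel it opens, which was too low to be tested, 0.964 ± 0.0631, 0.355 ± 0.0925 and 0.391 ± 0.0291. Ckmt2, the mitochondrial creatine kinase, stood at 131, 145 and 127 FPKM in untreated, 13.99, 10.01 and 19.6 in CNV and 21.5, 29.6 and 22.2 after BetP-Gel@Ran. Its 3 groups did not overlap, with CNV lowest. The cytosolic creatine kinase Ckm averaged 328 ± 13.01, 48.4 ± 17.2 and 67.6 ± 4.11 FPKM. The glycolytic enzymes Eno3 and Pgam2 had log2 changes of -2.64 ± 0.20 and -2.47 ± 0.19 in CNV, and Pygm, which breaks down glycogen, -2.56 ± 0.15. Mb, myoglobin, kept more, with 370 ± 24.1, 107 ± 25.4 and 147 ± 19.6 FPKM, though 31.9% of its exon bases lie under genes on the other strand.

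**Figure D3:**
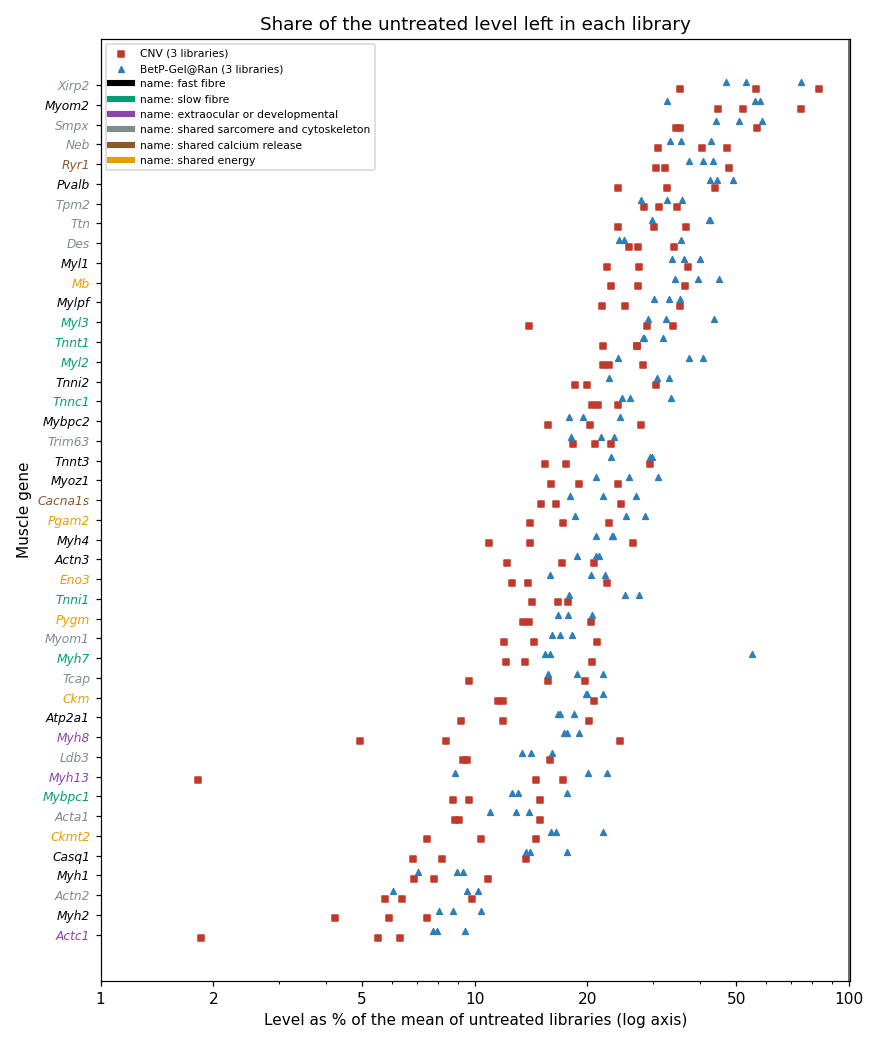
Level of each muscle gene in each CNV and BetP-Gel@Ran library as a percent of the untreated mean, on a log axis; genes are ordered by their mean in CNV, each point is 1 library and name colours give the role. Shares run from 4.57% for Actc1 to 58.5% for Xirp2 in CNV, and fast, slow and shared genes are spread over the order.

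Whether the members were lowered by 1 common factor was tested by setting each gene against the members' own reference in each library, the median level of the 26 tested members that averaged at least 10 FPKM. In CNV against untreated, 20 of 36 members departed from it, 6 downward and 14 upward (limma on log2(FPKM + 0.1), adjusted over all genes). Of all genes 98.1% departed, 97.9% upward and 0.156% downward, since most genes were not lowered with muscle, so adjustment hardly changed these p-values. This reference follows whichever member is in the middle, and on simulated tables it often called members that had not departed. The counts were therefore read beside those from a reference on the members' mean, with 8 downward and 10 upward, and from the median of their changes, with 9 and 10; the latter, and the rule to name genes called by all 3, were chosen after seeing the data. Requiring all 3 made false calls rarer on the simulated tables but did not remove them. Those tables drew each gene independently, whereas the real members moved together, with CNV replicate 3 highest of its group in 37 of 44. The rate of false calls in these data is therefore not known. All 3 references come from the same members and libraries, so a call by all 3 is not independent support.

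By all 3 references 6 members were lowered further than the common change in CNV and 10 less far. The 6 were Actc1, Actn2, Casq1, Ckmt2, Myh1 and Myh2, and the 10 were Des, Mb, Myl1, Myl2, Myl3, Mylpf, Pvalb, Smpx, Tnnt1 and Tpm2. Relative to the median level Actc1 departed by -1.82 ± 0.24 (SE, log2), Myh2 by -1.19 ± 0.27, Actn2 by -0.97 ± 0.25 and Myh1 by -0.76 ± 0.25. Smpx departed by 1.48 ± 0.24, Pvalb by 1.15 ± 0.26, Tpm2 by 1.09 ± 0.25 and Des by 0.97 ± 0.24. Fast, shared and energy genes thus stood on both sides, and the slow genes Tnnt1, Myl2 and Myl3 were among those lowered less. With limma voom on the recovered reads, these 3 slow genes no longer departed and the other 13 did. Ckmt2 lay at an adjusted p of 0.0440 (limma) and was lost in 8 of the 9 fits that each left out 1 library. With the median level as reference, the SEs of departures were nearly the same for all members, from 0.24 to 0.32. They came almost wholly from a trend over all genes and hardly reflect a member's own spread over 3 libraries. The reference lay at -2.86, -3.09 and -2.32 in the CNV libraries (log2, relative to the untreated mean). It was subtracted from every gene, so its own spread enters every SE. The p-values take these SEs as almost exactly known, although each group had 3 libraries. All p-values of departures are therefore uncertain, here and below, most of all near the threshold. Set against Acta1 alone, which itself lay low, Actc1 and Myh2 still departed downward, and the other 4 did not. Pvalb and Des are also made outside skeletal muscle, as given above. The part of other cells in any departure was not tested. The members lowered less had a median deposited length of 2059 bases (1041 to 3754) and those lowered further one of 2873 bases (1486 to 7137). The 20 that did not depart had one of 2904 bases (840 to 10459).

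In BetP-Gel@Ran against untreated 18 of 36 members departed, 5 downward and 13 upward, beside 98.1% of all genes (0.128% and 98% in the same order). The mean and the median of changes as references each gave 8 and 8. Called by all 3 were Acta1, Actc1, Actn2, Myh1 and Myh2 downward and Mb, Myl1, Myl2, Myl3, Mylpf, Pvalb, Smpx and Tpm2 upward. Actc1 departed by -1.14 ± 0.24 and Myh1 by -1.10 ± 0.25, Smpx by 1.45 ± 0.24 and Pvalb by 1.28 ± 0.26 (SE, log2, median level). With limma voom Myl2, Myl3 and Tpm2 no longer departed. The Acta1 departure, at an adjusted p of 0.0273 (limma), held in 5 of the 9 fits that each left out 1 library and was lost with the replicate number as a block.

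Between BetP-Gel@Ran and CNV, 1 of 36 members passed the test. Ckmt2 was higher after BetP-Gel@Ran, with a log2 difference of 0.75 ± 0.21 (SE; limma, adjusted p = 0.0431), against 5.81% of all genes called higher. None was called lower, against 8.27%. The median log2 difference over the members was 0.31, beside 0.00 over all genes, and 33 of 36 means were higher in BetP-Gel@Ran. The share of all genes with a higher mean was not counted. Members moved together within a library, so they are not 36 separate observations. Of the 36, 7 had every BetP-Gel@Ran library above every CNV library, which is 19.4% and near the 18.3% of all genes, and 0 had the reverse, against 18.6%. The 95% interval of the difference included 0 for 27 members, and the intervals together reached from -0.38 to 1.47. An unadjusted p under 0.05 was found for 9. For Acta1 the difference was 0.24 with an interval from -0.19 to 0.67, and for Myh4 0.45 with one from -0.11 to 1.02, so neither equality nor a change of up to this size was shown. Actc1 was the 1 member to depart from the common factor, by 0.68 ± 0.24 (limma, adjusted p = 0.0404), beside 13.5% of all genes (0.838% upward), and limma voom did not call it.

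One library weighed on this comparison. CNV replicate 3 was the highest of its group in 37 of 44 members, and its median share of the untreated level was 23.5%, against 16.8% and 15.5% in the other CNV libraries and 21.1 to 24.9% in the BetP-Gel@Ran libraries. Without it 21 members were called higher in BetP-Gel@Ran, among them Acta1, Myh4, Mylpf and Pvalb, against 10.3% of all genes in the same fit, and without any 1 of the other libraries 0 were. Without it 5 members departed from the common factor, namely Tpm2, Ckmt2, Des, Casq1 and Myh1, against 60.8% of all genes in the same fit.

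**Figure D4:**
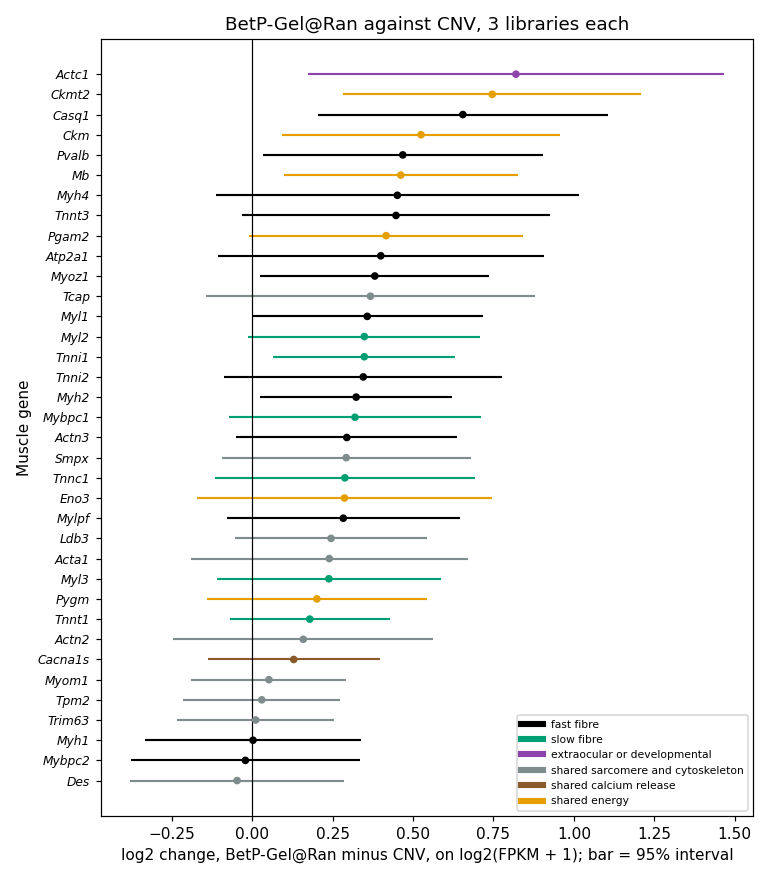
Log2 difference between BetP-Gel@Ran and CNV for the 36 tested muscle genes, on log2(FPKM + 1), 3 libraries per group; the point is the estimate, the bar its 95% interval and the colour the role. Most points lie right of 0 and 27 of 36 bars cross it.

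Other muscle genes, from lists chosen by function, were lower in the same samples. Of all genes tested, 22.1% were called lower in CNV and 18.1% in BetP-Gel@Ran. A gene can pass the filter through untreated libraries alone, which fixes its direction. How many genes of these lists did so was not counted. Of further Z-disc and M-band genes 20 of 21 tested were lower in CNV and 0 higher, with a median log2 change of -1.61; Myot, a Z-disc protein mutated in some muscular dystrophies, averaged 46.1, 6.06 and 7.96 FPKM in the 3 groups in that order. Of other triad and calcium genes 14 of 14 were lower, led by Srl (sarcalumenin) at -2.72 ± 0.12, and of other muscle energy genes 15 of 16, among them Pfkm, the muscle phosphofructokinase, at -2.11 ± 0.12. At the neuromuscular junction 4 of 4 tested genes, of 10 listed, were lower, Rapsn, which clusters acetylcholine receptors, by -0.79 ± 0.11. Among satellite-cell and myogenic genes 4 of 5 tested, of 12 listed, were lower, with a median log2 change of -0.46. The largest named changes were Myf6 at -1.64 ± 0.22 and Myog at -1.34 ± 0.26. Developmental and cardiac isoforms were lower in 3 of 4 tested, of 8 listed, including Myh3, the embryonic heavy chain, at -2.24 ± 0.21. Of 5 tested atrophy genes 0 were lower and 2 were higher in CNV, where 22.5% of all genes were called higher: Fbxo32, a ubiquitin ligase raised in wasting muscle and also made elsewhere, stood at 4.39, 4.60 and 4.39 FPKM in untreated and 6.36, 8.81 and 8.31 in CNV libraries, and Fbxo30 rose by 0.48 ± 0.10 on the log2 scale. The member Trim63, also a ubiquitin ligase of wasting muscle, was lower by contrast, with a log2 change of -1.53 ± 0.11 in CNV. Against the same untreated libraries, BetP-Gel@Ran was lower in 21 of 21 Z-disc and M-band genes, 13 of 14 triad genes and 15 of 16 energy genes. It was also lower in 4 of 4 junction genes and 3 of 4 developmental and cardiac isoforms. Of the satellite-cell and myogenic genes 2 of 5 were lower in BetP-Gel@Ran, with a median log2 change of -0.27. The 16th energy gene, Ppp1r3c, a glycogen-targeting subunit of a phosphatase, was higher there by 0.70 ± 0.17 (log2, SE). Of the 5 atrophy genes Fbxo32 (0.61 ± 0.11) and Foxo3 (0.42 ± 0.13) were higher after BetP-Gel@Ran, where 16.1% of all genes were called higher, and Fbxo30 missed the threshold (limma, adjusted p = 0.114).

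Markers of tissues beside the retina and of the retina itself moved with the muscle genes in part. The counts below stand beside 22.1% of all genes called lower in CNV and 22.5% called higher. Genes that passed the filter through untreated libraries alone were not counted here either. The 8 genes listed for tendon and fascia were Tnmd, Scx, Thbs4, Comp, Mkx, Fmod, Kera and Chad. They summed to 268 to 349 FPKM in untreated, 87.5 to 107 in CNV and 119 to 155 after BetP-Gel@Ran. Of the 8, 6 were lower in CNV (limma). Whether other tissues, such as cornea, made part of this sum was not tested. The 6 cornea markers summed to 16233 to 19148, 7538 to 9069 and 11818 to 14257, with 5 lower and 1 higher in CNV. The 10 rod markers summed to 2988 to 4042, 1294 to 1542 and 1736 to 2268, with 8 lower and a median log2 change of -1.30. The 11 smooth muscle markers summed to 93.7 to 144, 104 to 159 and 79.4 to 107, overlapping between untreated and CNV, with 3 of 8 tested lower. The 6 pigment epithelium markers summed to 700.2 to 963 in untreated and 752 to 1133 in CNV libraries, with 0 of 6 called. The 9 lens markers summed to 7847 in untreated replicate 3 and to 177 and 272 in the other untreated libraries, to 14.7 to 80.9 in CNV and to 806 to 3156 after BetP-Gel@Ran. Of 8 tested lens genes 3 were lower in CNV than in untreated, and 4 were higher after BetP-Gel@Ran than in CNV, against 5.81% of all genes. The 8 orbital fat markers summed to 15.7 to 39.2 in untreated and 16.3 to 25.1 in CNV libraries, which overlap. Of these, 1 of 5 tested was lower, near the 22.1% of all genes. Of the peripheral nerve markers 0 of 2 tested were called in CNV. Without untreated replicate 3, all 36 muscle genes were still lower in CNV. The part of these tissues in the muscle result was not tested.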

How the data were processed

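RNA-seq of 9 libraries in 3 groups of 3 was used. The authors deposited FPKM values per gene (fragments scaled to gene length and to mapped reads), with gene lengths and coordinates. Per the submitters' processing notes, reads were counted with HTSeq 0.6.0 on mm10. No source used here names the aligner. Poly-A RNA was made into libraries with a NEBNext Ultra kit, per the labels' protocols.

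FPKM times length was a whole multiple of 1 step per library for 100% of values (tolerance 0.05), so reads were recovered. Genes of at least 1 FPKM in 3 libraries were tested by limma 3.58.1 with trend and robust options (R 4.3.3, statmod 1.5.0) on log2(FPKM + 1), all 9 libraries in 1 fit, with Benjamini-Hochberg adjustment over 14086 genes at 0.05. Departures used log2(FPKM + 0.1) minus each library's reference. Both were tested on simulated data; the change test recovered most of what was put in, and the planned median-level reference made false calls, hence the other references. Members' coordinates were identical to GENCODE M21 for 44 of 45.

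Members and gene lists were chosen with earlier results of these data known. All members are described by role, with full values mostly for those with at least 10 FPKM in untreated libraries. From each other list, genes with the smallest p in CNV against untreated were named. Foxo3, Ppp1r3c and the low members were named after their values were seen. Alternatives were another pseudocount, other filters, quantile normalization, FPKM divided by its sum, fits of 2 groups or without trend and robust options, a block for the replicate number, leaving out each library, limma voom on recovered reads, and references on the mean, on Acta1 and, added later, on the median change.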

Additional observations from a re-analysis of the deposited data

How the results depend on the processing

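Every alternative called all tested members lower in CNV and in BetP-Gel@Ran than in untreated libraries, except the fit with no filter on low values, where Xirp2 and Myom2 missed the threshold in both, and Myh7 and Ttn in BetP-Gel@Ran. The median log2 change in CNV was -1.99 with no filter and -2.55 with limma voom, and with 1 library left out it ranged from -2.52 to -2.15. In BetP-Gel@Ran it was -1.76 with no filter, and -2.06 to -1.83 with 1 library left out.

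BetP-Gel@Ran against CNV was the least stable comparison. The number of members called was 0 with no filter, with only the 2 groups in the fit, with the replicate block and with FPKM divided by its sum. It was 2, Ckmt2 and Casq1, with a filter of 5 FPKM and with limma voom, and 0 to 21 with 1 library left out. The number departing from the common factor was 0 with no filter, only 2 groups, no trend and robust options, the replicate block, limma voom, a pseudocount of 1 or Acta1 as reference, and 0 to 5 with 1 library left out.

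Departures in CNV against untreated numbered 16 to 26 with 1 library left out, and those in BetP-Gel@Ran 15 to 23. With Acta1 as reference there were 26 (2 downward) and 27 (1 downward), and with limma voom 17 (10 downward) and 14 (9 downward). Against Acta1, Ckmt2 (0.52) and Pygm (0.55) turned from slightly below to above in BetP-Gel@Ran against untreated.

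Same-numbered libraries showed no sign of deviating together (r from -0.148 to 0.0841, 0 of 9 pairs over 0.1). Pairs with different numbers ran from -0.191 to 0.171. With 3 libraries per group, a weak pairing could be missed. With the replicate block 36, 0 and 36 members were called in CNV against untreated, BetP-Gel@Ran against CNV and BetP-Gel@Ran against untreated, and 17, 0 and 16 departed.

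Members under 1 FPKM rest on few reads, down to 1 per library for Myh13, and 3 libraries per group limit all intervals.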
